A study of Homo sapiens with 8 samples.

Results

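Aminoacyl-tRNA synthetases join each amino acid to its own tRNA, the step that fixes the meaning of the genetic code. Human cells keep one set for the cytosol and a second, encoded by other nuclear genes and imported as protein, for translation inside mitochondria. The genes described here are 35 synthetase genes taken by name from a fixed list, 19 for the cytosol and 16 for mitochondria. All 35 were found among the 18417 genes tested, and all 35 lay above the 30th percentile of mean level.

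The study used 8 expression arrays of HCC1937, a human breast cancer line with a truncating BRCA1 mutation, and of the same line carrying exogenous wild-type BRCA1, called HCC1937+BRCA1. Each line had 2 control arrays and 2 arrays after COH29, a small-molecule inhibitor of ribonucleotide reductase, at 10 µM for 24 h in RPMI with serum. The labels name no vehicle for the controls, do not give the number of clones behind the BRCA1 line, and do not tell separate cultures from repeat arrays of one. The p-values therefore measure the spread between these arrays, which may be technical. Values are log2 intensities normalised by the authors, and a change is a difference of group means on that scale. A gene was called changed at a limma p-value under 0.05 after Benjamini-Hochberg adjustment over all 18417 genes.

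Arrays of the same group correlated at 0.996 or above over all genes, and no array stood apart from its group. The epithelial genes EPCAM, CDH1, KRT7, KRT8 and KRT18 lay at or above the 97.5th percentile on every array, and KRT19, the sixth of the fixed epithelial list, lay between the 46.0th and the 60.3rd. Markers of other cell types were mixed. DCN, LUM, PTPRC and LYZ lay at or below the 7.08th percentile on every array, but CD68 lay at or above the 86.9th and CD14 reached the 89.6th, PECAM1 the 71.8th, CDH5 the 63.1st and COL1A1 the 54.3rd. On the HCC1937 controls CD14 read 10.47 and 10.74, PECAM1 9.23 and 9.37, and CDH5 8.72 and 8.78. The mean level of the endothelial list did move with the drug, from 7.28 to 7.31 on the HCC1937 control arrays to 6.59 on both COH29 arrays. In HCC1937+BRCA1 it moved from 6.66 to 6.75 down to 6.23 to 6.29. PECAM1 (-1.95 in HCC1937 and -1.48 in HCC1937+BRCA1) and CDH5 (-1.28 and -0.50) fell in both lines, while VWF and KDR stayed at or below the 21.7th percentile on every array. CD14 fell in HCC1937 by 1.13. The part of these genes in the synthetase results was not tested.

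Synthetase genes are known targets of the amino acid response. When uncharged tRNA or other stress activates the kinases that phosphorylate eIF2, translation of the factor ATF4 rises, and ATF4 with C/EBP partners binds a composite element in genes of amino acid synthesis, transport and charging. Many cytosolic synthetase genes belong to that group by textbook account, whereas the mitochondrial enzymes are mostly regarded as part of the nuclear programme for mitochondrial translation.

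The letters of that composite element were looked for in promoters, because it is the letter pattern named for this response. The search used TGATGNAA on both strands from 250 bases before to 50 bases after each RefSeq start (GRCh38.p14). A window was at hand for 30 members, and AARS2, LARS1, VARS1, VARS2 and YARS1 were not searched. The motif stood in 7 of 16 cytosolic genes, 43.8%, and in 1 of 14 mitochondrial genes, 7.14%. Among the 14239 tested genes with a window the share was 3.59%. The stricter TGATGCAA, which is a special case of the first motif, stood in 6 of 16 cytosolic genes (37.5%), in 0 of 14 mitochondrial genes and in 0.969% of the tested genes. The 8 matches are printed with 11 bases on each side, 5′ to 3′ on the strand of the gene, and the capitals mark the motif on either strand.
AARS1, chr16:70289675-70289704, minus strand: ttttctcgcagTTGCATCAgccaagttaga
CARS1, chr11:3057407-3057436, minus strand: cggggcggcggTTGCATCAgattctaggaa
GARS1, chr7:30594834-30594863, plus strand: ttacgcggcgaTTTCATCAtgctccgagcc
IARS1, chr9:92293692-92293721, minus strand: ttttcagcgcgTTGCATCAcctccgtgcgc
MARS1, chr12:57488053-57488082, plus strand: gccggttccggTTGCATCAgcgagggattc
NARS1, chr18:57621804-57621833, minus strand: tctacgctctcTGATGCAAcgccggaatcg
TARS1, chr5:33440956-33440985, plus strand: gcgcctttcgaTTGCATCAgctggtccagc
YARS2, chr12:32756076-32756105, minus strand: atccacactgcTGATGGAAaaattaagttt
In 5 of the 7 cytosolic genes the match began within 15 bases of the start or overlapped it, at -2 in CARS1, -13 in IARS1, -4 in MARS1, 15 in NARS1 and 3 in TARS1. In GARS1 it began at -33, and in AARS1 and YARS2 it lay farther out, at -187 and -197. A match says that these letters are present and not that a factor binds there.

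A group of cytosolic synthetase genes rose with COH29 in both lines. Fewer fell, near the shares of all genes that fell. In HCC1937, 7 of 19 cytosolic genes rose, with 10.2% of all tested genes rising, and 3 of 19 fell, with 12.5% of all genes falling. In HCC1937+BRCA1, 8 of 19 rose against 13.6% of all genes and 5 of 19 fell against 20.1%. All 7 that rose in HCC1937 were among the 8 of HCC1937+BRCA1, namely AARS1, CARS1, EPRS1, GARS1, SARS1, WARS1 and YARS1, with TARS1 called in HCC1937+BRCA1. The median change of the 19 was 0.17 (range -0.55 to 0.73) in HCC1937 and 0.19 (-0.54 to 1.05) in HCC1937+BRCA1, beside 0.04 for all genes in each line. In these bulk samples a lower signal may come from fewer cells of a type or from less RNA per cell, and the 2 cannot be told apart.

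**Figure D1:**
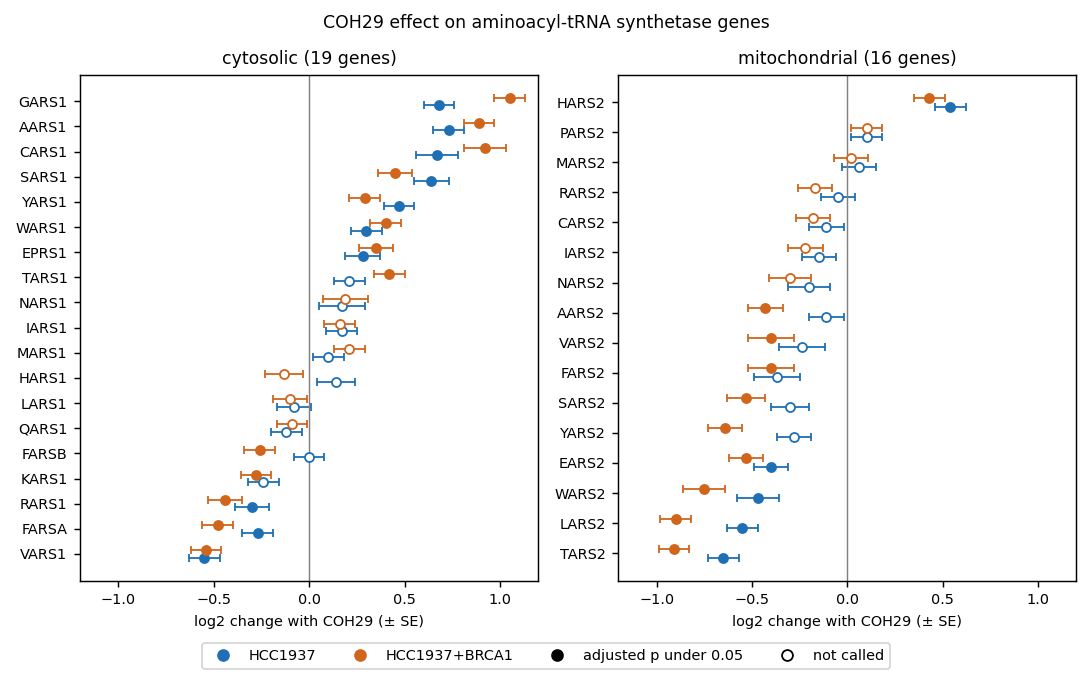
Log2 change with COH29 (x axis, COH29 minus control, bars ± SE) of each synthetase gene (y axis), cytosolic on the left and mitochondrial on the right, in HCC1937 (blue) and HCC1937+BRCA1 (orange), with filled points at adjusted p under 0.05. The cytosolic genes spread from -0.55 to 1.05, and of the 16 mitochondrial genes HARS2 alone has filled points above 0.

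AARS1, GARS1 and CARS1 moved most among the cytosolic genes. AARS1, the alanyl enzyme, read 11.81 and 11.81 on the HCC1937 controls and 12.52 and 12.55 with COH29. The HCC1937+BRCA1 arrays read 11.58 and 11.67 without the drug and 12.53 and 12.52 with it. The treated arrays of both lines reached nearly the same level, above every control array. The rise was 0.73 ± 0.08 (SE, n = 2 and 2, adjusted p = 0.000353), or 1.66-fold, in HCC1937. The HCC1937+BRCA1 rise was 0.89 ± 0.08, or 1.86-fold (adjusted p = 5.87e-05).

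GARS1 encodes the glycyl enzyme and supplies both the cytosolic and the mitochondrial form from one gene. It read 12.03 and 12.06 on the HCC1937 controls and 12.75 and 12.71 with COH29. On the HCC1937+BRCA1 arrays it went from 11.82 and 11.72 to 12.84 and 12.80. The HCC1937+BRCA1 controls were the lowest 2 of the 8 arrays and the treated ones the highest 2. The rise was 0.68 ± 0.08 (1.61-fold, adjusted p = 0.000517) in HCC1937 and 1.05 ± 0.08 (2.07-fold, adjusted p = 2.86e-05) in HCC1937+BRCA1.

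CARS1, the cysteinyl enzyme, read 7.85 and 7.88 on the HCC1937 controls and 8.44 and 8.62 after COH29. On the HCC1937+BRCA1 arrays it went from 7.33 and 7.61 to 8.39 and 8.40. Its controls differed more from each other in HCC1937+BRCA1 than in HCC1937, and the groups still did not overlap in either line. The change was 0.67 ± 0.11 (1.59-fold, adjusted p = 0.00251) in HCC1937 and 0.92 ± 0.11 (1.90-fold, adjusted p = 0.000264) in HCC1937+BRCA1. AARS1, GARS1 and CARS1 all carry the printed motif, GARS1 in the looser form.

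SARS1 and YARS1 also rose in both lines. SARS1, the seryl enzyme, went from 11.38 and 11.23 to 11.90 and 11.99 in HCC1937 and from 11.60 and 11.75 to 12.13 on both arrays in HCC1937+BRCA1. Treated and control arrays were apart in each line, with rises of 0.64 ± 0.09 (adjusted p = 0.0014) and 0.45 ± 0.09 (adjusted p = 0.00552). YARS1, the tyrosyl enzyme, went from 10.38 and 10.40 to 10.82 and 10.90 in HCC1937, a rise of 0.47 ± 0.08 (adjusted p = 0.00303). In HCC1937+BRCA1 its controls already read 10.88 on both arrays, and with COH29 it read 11.20 and 11.14, a rise of 0.29 ± 0.08 (adjusted p = 0.0214). That second call did not hold without any 1 of the 4 HCC1937+BRCA1 arrays, the adjusted p then being 0.0541 to 0.0926. SARS1 has no match of the motif in its window.

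WARS1, TARS1 and EPRS1 rose by less. WARS1, the tryptophanyl enzyme, which is also known as an interferon-induced gene, went from 11.84 and 11.91 to 12.20 and 12.16 in HCC1937. The HCC1937+BRCA1 arrays went from 11.44 and 11.40 to 11.80 and 11.84. Treated arrays stood above controls in each line, by 0.30 ± 0.08 (adjusted p = 0.0265) and 0.40 ± 0.08 (adjusted p = 0.00467). The HCC1937 call for WARS1 did not hold without any 1 of that line's 4 arrays (adjusted p 0.0568 to 0.154). TARS1, the threonyl enzyme, rose by 0.42 ± 0.08 in HCC1937+BRCA1 (adjusted p = 0.00385), from 10.91 and 10.86 to 11.36 and 11.26. In HCC1937 its difference was 0.21 (adjusted p = 0.0993), and the call was not met. EPRS1 encodes a single chain that charges both glutamate and proline. Its rise was 0.28 ± 0.09 in HCC1937 (adjusted p = 0.0457), a call lost without any 1 of the 8 arrays (0.0541 to 0.182). In HCC1937+BRCA1 the EPRS1 rise was 0.35 ± 0.09 (adjusted p = 0.0135), lost when that line's COH29 replicate 1 (0.0743) or control replicate 2 (0.0818) was left out. Neither WARS1 nor EPRS1 has a match in its window.

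**Figure D2:**
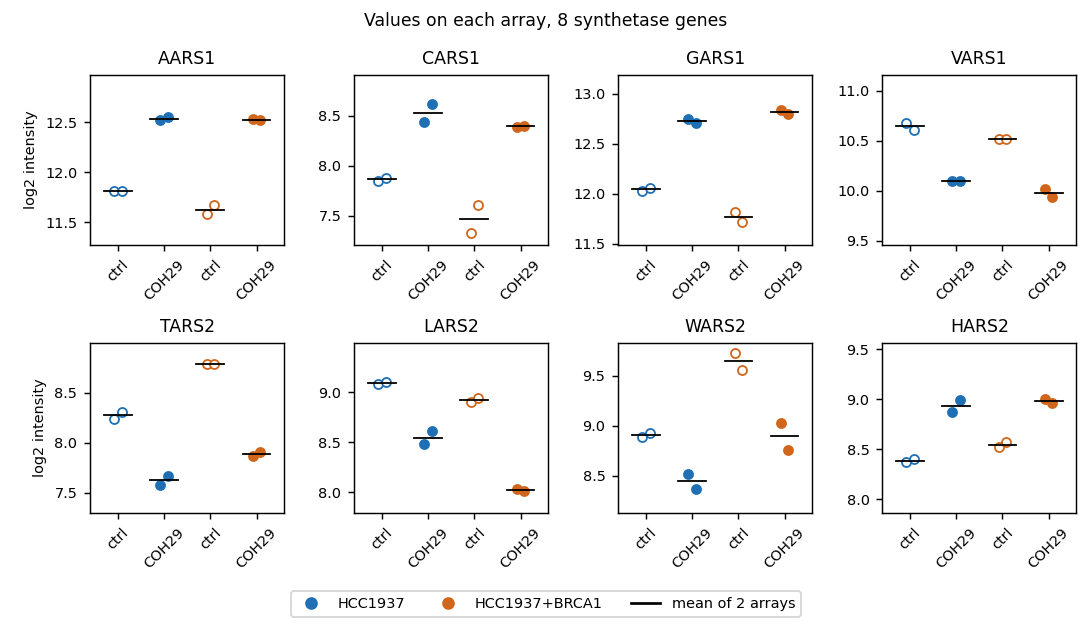
Log2 intensity (y axis) on each of the 8 arrays for 8 synthetase genes, in HCC1937 (blue) and HCC1937+BRCA1 (orange), controls open and COH29 filled, with a line at the mean of 2 arrays; each panel spans the same number of log2 units. AARS1, CARS1, GARS1 and HARS2 stand higher with COH29 in both lines, and VARS1, TARS2, LARS2 and WARS2 lower.

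VARS1, FARSA and RARS1 fell in both lines. VARS1, the valyl enzyme, read 10.68 and 10.61 on the HCC1937 controls and 10.10 on both COH29 arrays, and in HCC1937+BRCA1 it went from 10.52 on both controls to 10.02 and 9.94. The changes were -0.55 ± 0.08 (adjusted p = 0.00142) and -0.54 ± 0.08 (adjusted p = 0.00084), and each left 0.69 of the control signal. The array reads VARS1 with 2 probe sets, and their values were identical to 2 decimals on all 8 arrays. The second is therefore not counted as a separate reading of the fall. AARS1, CARS1, GARS1, SARS1 and VARS1 kept their calls in both lines without any 1 of the 8 arrays.

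FARSA and FARSB encode the catalytic alpha and the beta subunit of the cytosolic phenylalanyl enzyme, which works as a tetramer of both. FARSA went from 12.00 and 12.06 to 11.73 and 11.78 in HCC1937 and from 11.82 and 11.85 to 11.31 and 11.41 in HCC1937+BRCA1. Its changes were -0.27 ± 0.08 (adjusted p = 0.0425) and -0.48 ± 0.08 (adjusted p = 0.00205). In HCC1937 the FARSA call was lost without any 1 of that line's 4 arrays (0.079 to 0.206) and without either HCC1937+BRCA1 control (0.0619). FARSB overlapped between control and COH29 in HCC1937, at 11.99 and 11.92 against 11.97 and 11.93. In HCC1937+BRCA1 it read 11.80 and 11.76 without COH29 and 11.52 on both arrays with it, a change of -0.26 ± 0.08 (adjusted p = 0.0331). That call was lost without any 1 of the line's 4 arrays (0.0783 to 0.148) and without either HCC1937 control (0.0537).

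RARS1 and KARS1 belong to the multisynthetase complex, the cytosolic assembly that holds several synthetases around the scaffold proteins AIMP1, AIMP2 and EEF1E1. RARS1, the arginyl enzyme, fell from 11.21 and 11.20 to 10.89 and 10.91 in HCC1937 (-0.30 ± 0.09, adjusted p = 0.0427). In HCC1937+BRCA1 its fall was from 11.47 and 11.40 to 11.10 and 10.89 (-0.44 ± 0.09, adjusted p = 0.00531). The HCC1937 call was lost without any 1 of that line's 4 arrays (0.0952 to 0.16) and without either HCC1937+BRCA1 control (0.0585). KARS1, the lysyl enzyme, which like GARS1 serves both compartments from one gene, fell by 0.28 ± 0.08 in HCC1937+BRCA1 (adjusted p = 0.0223). Without any 1 of that line's 4 arrays the KARS1 call was lost (0.0589 to 0.103), and in HCC1937 its change was -0.24 (adjusted p = 0.0599).

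The 7 listed synthetases of the complex, EPRS1, IARS1, KARS1, LARS1, MARS1, QARS1 and RARS1, moved in both directions. In HCC1937 1 of the 7 rose and 1 fell (range -0.30 to 0.28, median -0.08), near the 10.2% and 12.5% of all genes. In HCC1937+BRCA1 1 rose and 2 fell (range -0.44 to 0.35, median -0.09), beside 13.6% and 20.1%. Of the 12 cytosolic synthetase genes outside the complex, 6 rose and 2 fell in HCC1937 (median 0.26), and 7 rose and 3 fell in HCC1937+BRCA1 (median 0.35). The enzymes also fall into 2 structural classes, which differ in the fold of the catalytic site. In HCC1937, 3 of 9 cytosolic class I genes rose and 2 fell, and 3 of 9 class II genes rose and 1 fell, beside 10.2% and 12.5% of all genes. In HCC1937+BRCA1, 3 of 9 class I genes rose and 2 fell, and 4 of 9 class II genes rose and 3 fell, beside 13.6% and 20.1%. EPRS1, whose chain holds a catalytic site of each class, was left out of that count.

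Not every gene with the motif was called. IARS1, MARS1 and NARS1, the isoleucyl, methionyl and asparaginyl genes, have the strict motif close to their starts. Their changes were 0.17, 0.10 and 0.17 in HCC1937 (adjusted p 0.17, 0.435 and 0.347). In HCC1937+BRCA1 they were 0.16, 0.21 and 0.19 (adjusted p 0.163, 0.0809 and 0.244). MARS1 passed in HCC1937+BRCA1 with the arrays shifted to one median (0.28, adjusted p = 0.0273) and under cyclic loess (0.32, adjusted p = 0.0158), and also with genes under the 30th percentile of mean level left out, the low-level filter (adjusted p = 0.0455), and with the trended, robust variance prior (adjusted p = 0.0201). IARS1 passed there under cyclic loess (0.21, adjusted p = 0.0463) and with that prior (adjusted p = 0.0328), and in HCC1937 with that prior (adjusted p = 0.0287). The remaining cytosolic genes, HARS1, LARS1 and QARS1, lay between -0.13 and 0.14 and were called in neither line.

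Most mitochondrial synthetase genes had lower values with COH29. In HCC1937, 4 of 16 fell (12.5% of all genes did) and 1 rose (10.2% did), and in HCC1937+BRCA1 9 of 16 fell (20.1%) and 1 rose (13.6%). EARS2, LARS2, TARS2 and WARS2 fell in both lines, and AARS2, FARS2, SARS2, VARS2 and YARS2 were called lower in HCC1937+BRCA1. HARS2 rose in both. The median change was -0.22 (range -0.65 to 0.54) in HCC1937 and -0.40 (-0.91 to 0.43) in HCC1937+BRCA1. The change was below 0 for 13 of the 16 in each line, called or not. Of all 18417 genes it was below 0 for 7922 in HCC1937 and 8320 in HCC1937+BRCA1, with a median of 0.04 in each line.

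TARS2 and LARS2 fell most. TARS2, the threonyl enzyme of mitochondria, read 8.24 and 8.31 on the HCC1937 controls and 7.58 and 7.67 with COH29. In HCC1937+BRCA1 it read 8.79 on both controls and 7.87 and 7.91 after the drug. Every COH29 array of both lines lay below every control array. The TARS2 changes were -0.65 ± 0.08 (adjusted p = 0.000703), to 0.64 of control, and -0.91 ± 0.08 (adjusted p = 6.17e-05), to 0.53 of control.

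LARS2, the leucyl enzyme of mitochondria, read 9.08 and 9.10 and then 8.48 and 8.61 in HCC1937. In HCC1937+BRCA1 the controls read 8.90 and 8.94 and the COH29 arrays 8.03 and 8.01. The lines started close together and ended apart, with HCC1937+BRCA1 lower. The LARS2 changes were -0.55 ± 0.08 (adjusted p = 0.00178) and -0.90 ± 0.08 (adjusted p = 7.37e-05).

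WARS2 and EARS2 also fell in both lines, and YARS2 fell in HCC1937+BRCA1. WARS2, the tryptophanyl enzyme, fell from 8.89 and 8.93 to 8.52 and 8.37 in HCC1937 (-0.47 ± 0.11, adjusted p = 0.0171). In HCC1937+BRCA1 it fell from 9.73 and 9.56 to 9.03 and 8.76 (-0.75 ± 0.11, adjusted p = 0.000985). Its HCC1937 call was lost without COH29 replicate 2 (0.082) and without either control array of that line (0.0695 and 0.0975). EARS2, which charges both the glutamate and the glutamine tRNA of mitochondria with glutamate, read 9.01 and 9.05 and then 8.61 and 8.64 in HCC1937. In HCC1937+BRCA1 it read 8.38 on both controls and 7.75 and 7.95 with COH29. EARS2 changed by -0.40 ± 0.09 (adjusted p = 0.0116) and -0.53 ± 0.09 (adjusted p = 0.00188). The first EARS2 call was lost without HCC1937 COH29 replicate 1 (0.0589), control replicate 1 (0.0573) or control replicate 2 (0.0778). YARS2, the mitochondrial gene with a motif match, fell in HCC1937+BRCA1 by 0.64 ± 0.09 (adjusted p = 0.000885), from 8.56 and 8.40 to 7.84 and 7.85. In HCC1937 the YARS2 change was -0.28 (adjusted p = 0.0609, and 0.0315 with the low-level filter).

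SARS2, AARS2, FARS2 and VARS2 were the other genes lower in HCC1937+BRCA1. SARS2 changed by -0.53 ± 0.10 (adjusted p = 0.00258) and AARS2 by -0.43 ± 0.09 (adjusted p = 0.00478). FARS2, a single-chain phenylalanyl enzyme unlike its cytosolic tetramer, and VARS2 each changed by -0.40 ± 0.12 (adjusted p 0.029 and 0.0306). The FARS2 call was lost in HCC1937+BRCA1 without COH29 replicate 2 (0.152) and without either control array (0.125 and 0.0681). The VARS2 call was lost there without either COH29 array (0.143 and 0.0554) and without control replicate 2 (0.17). In HCC1937 SARS2, AARS2, FARS2 and VARS2 changed by -0.30, -0.11, -0.37 and -0.24, short of the threshold. SARS2 and FARS2 were just outside it (adjusted p 0.0504 and 0.0519). Both passed with the low-level filter (0.0253 and 0.0272) and with the trended, robust prior (0.0408 and 0.0169). CARS2, IARS2, MARS2, NARS2, PARS2 and RARS2 were called in neither line and lay between -0.30 and 0.10. In HCC1937+BRCA1 NARS2 passed with the low-level filter (adjusted p = 0.034), and NARS2 and IARS2 with the trended, robust prior (0.0236 and 0.0292).

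For 17 pairs of genes that serve the same amino acid in the 2 compartments, the changes were set side by side. The cytosolic value was above the mitochondrial one in 14 pairs in HCC1937 and in 13 pairs in HCC1937+BRCA1, the 13 being among the 14. The pairs with FARS2 share that gene, and the pairs with EPRS1 share EPRS1. TARS1 and TARS2 changed by 0.42 and -0.91 in HCC1937+BRCA1, AARS1 and AARS2 by 0.89 and -0.43, and WARS1 and WARS2 by 0.40 and -0.75. The exceptions in both lines were the histidyl, arginyl and valyl pairs, and in HCC1937+BRCA1 also FARSA with FARS2.

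**Figure D3:**
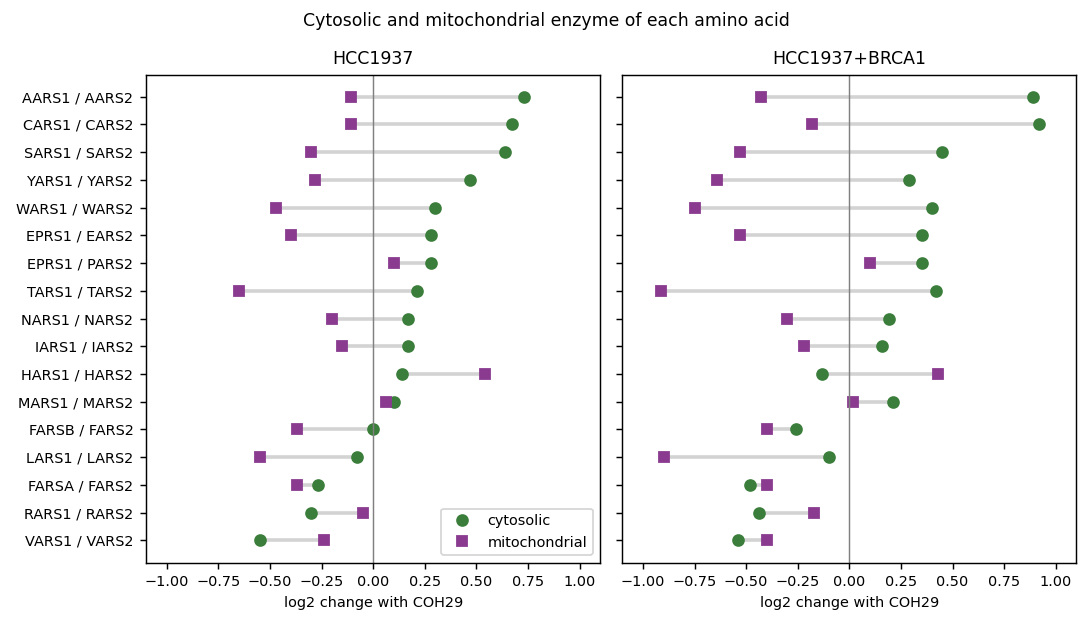
Log2 change with COH29 (x axis) of the cytosolic gene (green circle) and the mitochondrial gene (purple square) of each of 17 pairs (y axis), in HCC1937 (left) and HCC1937+BRCA1 (right), with a grey line joining the pair. The green circle lies to the right in 14 pairs on the left and 13 on the right, and the HARS1 and HARS2 pair runs the other way.

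The genes of the histidyl pair are neighbours in the genome. HARS1 and HARS2 lie head to head on chromosome 5 with starts 85 bases apart, so that a single short stretch precedes both genes. The 84 bases between them are shown because the pair shares this stretch and yet moved unequally. They are given on the plus strand of GRCh38.p14, and they hold no match of either motif.
HARS1 and HARS2, chr5:140691371-140691454: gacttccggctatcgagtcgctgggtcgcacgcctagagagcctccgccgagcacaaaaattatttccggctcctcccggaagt
HARS2 went from 8.37 and 8.40 to 8.87 and 8.99 in HCC1937 and from 8.52 and 8.57 to 9.00 and 8.96 in HCC1937+BRCA1. Every COH29 array lay above every control, with rises of 0.54 ± 0.08 (1.46-fold, adjusted p = 0.0017) and 0.43 ± 0.08 (1.35-fold, adjusted p = 0.00339). HARS1 on its other side read 10.94 and 10.90 and then 11.00 and 11.13 in HCC1937, a change of 0.14 (adjusted p = 0.35). In HCC1937+BRCA1 its arrays overlapped, at 10.80 and 10.97 without and 10.67 and 10.84 with COH29, a change of -0.13 (adjusted p = 0.347).

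The COH29 changes of the 2 lines were then compared by the difference of effects, HCC1937+BRCA1 minus HCC1937. None of the 35 genes was called, with 0 of 35 higher (0.543% of all genes) and 0 of 35 lower (0.413%) by limma, and 5 of 35 had an unadjusted p under 0.05, beside 2428 of all 18417 genes, a like share. With a trended and robust variance prior in limma 1 gene was called, GARS1. GARS1 had the largest difference, 0.37 ± 0.12 (unadjusted p = 0.0112, adjusted p = 0.213, and 0.0157 with the trended prior). The other 4 had the more negative change in HCC1937+BRCA1, LARS2 by -0.35 ± 0.12 (adjusted p = 0.244), YARS2 by -0.35 ± 0.13 (0.304), AARS2 by -0.32 ± 0.12 (0.318) and FARSB by -0.26 ± 0.11 (0.375). The point estimate was lower in HCC1937+BRCA1 for 15 of 16 mitochondrial genes and for 9 of 19 cytosolic genes, beside 10142 of all 18417 genes. The median difference was -0.12 for the mitochondrial and 0.00 for the cytosolic genes. A gene called in one line and missed in the other is not shown by this to respond differently.

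Without COH29 the lines themselves differed at many synthetase genes. In HCC1937+BRCA1 4 of 19 cytosolic genes were higher (16.4% of all genes were) and 7 of 19 lower (14.8%), and of the mitochondrial genes 4 of 16 were higher and 3 of 16 lower. With COH29, 3 cytosolic and 3 mitochondrial genes were higher (14.2% of all genes) and 7 of each set lower (17.4%). Whether such gaps come from BRCA1 or from the derivation of the line cannot be told apart here.

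**Figure D4:**
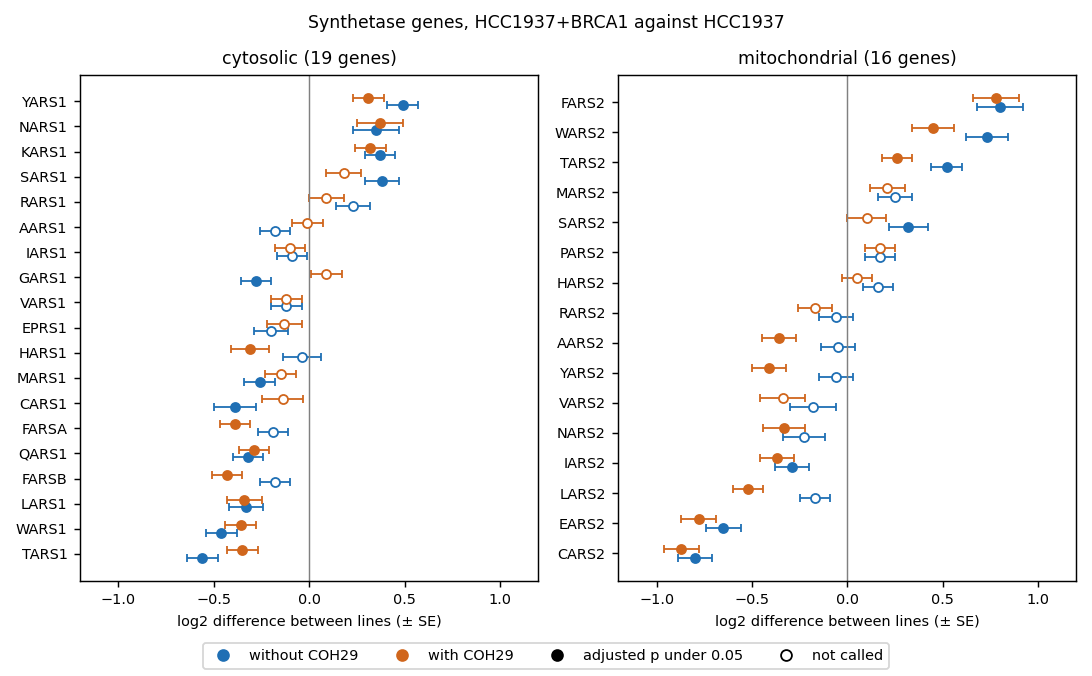
Log2 difference between the lines (x axis, HCC1937+BRCA1 minus HCC1937, bars ± SE) of each synthetase gene (y axis) without COH29 (blue) and with it (orange), cytosolic on the left and mitochondrial on the right, filled at adjusted p under 0.05. FARS2 stands highest and CARS2 lowest in both conditions.

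FARS2 and CARS2 marked the extremes. CARS2, the mitochondrial cysteinyl enzyme, read 10.36 and 10.49 on the HCC1937 controls and 9.56 and 9.68 on those of HCC1937+BRCA1. With COH29 it read 10.26 and 10.37 against 9.41 and 9.48, so that all 4 arrays of the BRCA1 line lay below all 4 of HCC1937. The differences were -0.80 ± 0.09 (adjusted p = 0.000185) without and -0.87 ± 0.09 (adjusted p = 0.000119) with the drug. EARS2 was also lower in HCC1937+BRCA1, by -0.65 ± 0.09 (adjusted p = 0.00058) and -0.78 ± 0.09 (adjusted p = 0.000207).

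FARS2 read 8.54 and 8.72 in HCC1937 controls and 9.46 and 9.40 in those of HCC1937+BRCA1. All 4 arrays of the BRCA1 line were again apart from the other 4, here above them. The difference was 0.80 ± 0.12 (adjusted p = 0.000836) without and 0.78 ± 0.12 (adjusted p = 0.00102) with COH29. WARS2 was higher in HCC1937+BRCA1 controls by 0.73 ± 0.11 (adjusted p = 0.00105) and TARS2 by 0.52 ± 0.08 (adjusted p = 0.00116). With COH29 those gaps were 0.45 ± 0.11 (adjusted p = 0.0135) and 0.26 ± 0.08 (0.0374). The WARS2 call with COH29 was lost without HCC1937 COH29 replicate 2 (0.0843) or HCC1937+BRCA1 COH29 replicate 1 (0.097), and the TARS2 call without any 1 of the 8 arrays (0.0557 to 0.149).

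LARS2 differed between the lines with COH29, by -0.52 ± 0.08 (adjusted p = 0.00132), and without it the value was -0.17 (adjusted p = 0.175). Of the cytosolic genes, TARS1 was lower in HCC1937+BRCA1 controls by -0.56 ± 0.08 (adjusted p = 0.000773) and WARS1 by -0.46 ± 0.08 (0.00229). YARS1 was higher there by 0.49 ± 0.08 (adjusted p = 0.00149). With COH29 the WARS1 gap was -0.36 ± 0.08 (adjusted p = 0.00831). The TARS1 gap was then -0.35 ± 0.08 (adjusted p = 0.00978), lost without HCC1937+BRCA1 COH29 replicate 2 (0.0635). GARS1 was lower in the HCC1937+BRCA1 controls by -0.28 (adjusted p = 0.0295, and 0.0521 to 0.163 without any 1 of the 4 control arrays), and with COH29 the lines differed by 0.09 (adjusted p = 0.47). CARS1 was lower in those controls by -0.39 (adjusted p = 0.0228). Its call was lost without HCC1937+BRCA1 control replicate 1 (0.166) or HCC1937 control replicate 1 (0.0837) or 2 (0.11).

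Genes that work beside the synthetases were described from fixed lists, with the same shares of all genes as background. Several mitochondrial charging and translation factors fell. Of 13 measured, 5 fell and 1 rose in HCC1937 (median -0.27), beside 12.5% and 10.2% of all genes. In HCC1937+BRCA1 9 fell and 1 rose (median -0.46), beside 20.1% and 13.6%. Without any 1 array the HCC1937 count of lower genes went down to 2 in one case (control replicate 2) and to 3 in others (COH29 replicate 1, control replicate 1). The count of genes that rose went to 0 without HCC1937 control replicate 2, and in HCC1937+BRCA1 without any 1 of its 4 arrays.

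QRSL1 and GATB encode subunits of the amidotransferase that turns glutamate on the mitochondrial glutamine tRNA into glutamine, the step that follows EARS2. QRSL1 read 9.96 and 10.07 and then 9.44 and 9.58 in HCC1937, and 9.76 and 9.65 and then 8.65 and 8.50 in HCC1937+BRCA1. The QRSL1 changes were -0.51 ± 0.10 (adjusted p = 0.00547, and 0.0508 without HCC1937 control replicate 2) and -1.13 ± 0.10 (adjusted p = 4.84e-05). The difference of the QRSL1 effects, HCC1937+BRCA1 minus HCC1937, was -0.62 and not called (limma adjusted p = 0.0849). It was called with the low-level filter (0.0386) and with the trended, robust prior (0.0102). It was also called with replicate numbers, crossed between the lines, as a block (0.0422). GATB changed by -0.60 ± 0.08 (adjusted p = 0.00101) and -0.78 ± 0.08 (adjusted p = 0.000137). The third subunit, GATC, was called in neither line. In HCC1937 it was higher with COH29, at 10.36 and 10.29 without it and 10.66 and 10.68 with it. In HCC1937+BRCA1 the GATC arrays overlapped, at 10.33 and 10.60 without and 10.30 and 10.73 with COH29. MTRF1, a mitochondrial release factor, changed by -0.56 and -0.77 (adjusted p 0.00281 and 0.000304), and MTIF3, an initiation factor, by -0.43 and -0.68 (0.0168 and 0.00112). MTFMT, which formylates the initiator methionyl-tRNA of mitochondria, rose by 0.43 in HCC1937 (adjusted p = 0.00865). That call was lost without HCC1937 control replicate 2, where the change was 0.4. In HCC1937+BRCA1 MTFMT was also higher with COH29, at 8.92 and 8.95 without it and 9.25 and 9.30 with it.

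Of 4 measured partner genes of the cytosolic synthetases, 1 fell and 0 rose in each line. Of all genes, 12.5% fell and 10.2% rose in HCC1937, and 20.1% and 13.6% in HCC1937+BRCA1. The scaffolds AIMP2 and EEF1E1 were not among the 4. The gene that fell was AIMP1, a scaffold of the multisynthetase complex. Its change was -0.33 ± 0.08 in HCC1937 (adjusted p = 0.02) and -0.26 ± 0.08 in HCC1937+BRCA1 (adjusted p = 0.0422). The HCC1937 call was lost without COH29 replicate 2 (0.078) and without either control array of that line (0.135 and 0.0567). In HCC1937+BRCA1 the AIMP1 call was lost without any 1 of that line's 4 arrays (change -0.22 to -0.29) or either HCC1937 control (-0.26). It was also lost under cyclic loess (adjusted p = 0.23) and with arrays shifted to one median (0.0882). The same held with replicate numbers as a block (0.065) and with only the arrays of the groups compared (0.0699). XPOT, the exporter of tRNA from the nucleus, changed by 0.11 and 0.12 and was not called.

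The cytosolic elongation and initiation factors showed no common direction. Of 22, 3 rose and 2 fell in HCC1937 (median -0.01), and 1 rose and 5 fell in HCC1937+BRCA1 (median -0.10). Of all genes, 10.2% rose and 12.5% fell in HCC1937, and 13.6% and 20.1% in HCC1937+BRCA1. EIF4G1, the scaffold of the cap-binding complex, changed by -0.33 and -0.35 (adjusted p 0.0159 and 0.00782). EIF2S1, the subunit that the stress kinases phosphorylate, changed by -0.49 ± 0.08 in HCC1937+BRCA1 (adjusted p = 0.00164). In HCC1937 EIF2S1 was also lower with COH29, at 11.72 and 11.64 without it and 11.48 and 11.52 with it. EIF5 rose by 0.35 and 0.33 (adjusted p 0.0245 and 0.022). The HCC1937+BRCA1 count of lower genes became 8 with the low-level filter. It became 3 with arrays shifted to one median or under cyclic loess, and 2 with only the arrays of the groups compared. That of higher genes became 3 with the trended, robust prior and 0 with only the arrays of the groups compared. Without 1 array at a time the HCC1937 counts were 0 to 1 higher and 0 to 1 lower for any array of that line. The EIF4G1 call of HCC1937 was lost without COH29 replicate 1 (0.0643) and without either control array of that line (0.0701 and 0.101). In HCC1937+BRCA1 EIF4G1 was lost without control replicate 1 (0.0552). The EIF5 call was lost without any 1 of the HCC1937 arrays in that line (0.0636 to 0.124), and in HCC1937+BRCA1 without COH29 replicate 1 (0.102), COH29 replicate 2 (0.0503) or control replicate 2 (0.13). The count of lower genes in HCC1937+BRCA1 went from 5 to 2 without either of its COH29 arrays and to 1 without control replicate 1.

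Of 23 genes of tRNA modification and processing, 4 fell and 1 rose in HCC1937 (median -0.19), near the 12.5% and 10.2% of all genes. In HCC1937+BRCA1 16 fell and 0 rose (median -0.40), beside 20.1% and 13.6%. The count of 4 became 8 with the low-level filter, 9 with the trended, robust prior and 10 with replicate numbers, crossed between the lines, as a block. Without HCC1937 control replicate 1 it became 2, and without HCC1937+BRCA1 COH29 replicate 1 the count of 16 became 10. PUS7, a pseudouridine synthase, changed by -0.74 and -0.81 (adjusted p 0.00235 and 0.0009), and TRMT5, a guanine methyltransferase of tRNA, by -0.68 in HCC1937 (0.000512). In HCC1937+BRCA1 TRMT5 was also lower with COH29, at 9.32 and 9.24 without it and 8.84 and 8.87 with it. TSEN54, a subunit of the splicing endonuclease of tRNA, changed by -0.42 and -0.71 (adjusted p 0.00779 and 0.000301, the first 0.0654 without HCC1937 control replicate 1). The 1 that rose in HCC1937, ADAT3, a subunit of the tRNA adenosine deaminase (0.32, adjusted p = 0.0286), was lost without any 1 array of that line (0.0661 to 0.169).

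Most genes of amino acid deprivation signalling rose. Of 20 genes, 13 rose and 1 fell in HCC1937 (median 0.63), beside 10.2% and 12.5% of all genes. In HCC1937+BRCA1 14 rose and 2 fell (median 1.03), beside 13.6% and 20.1%. ASNS, asparagine synthetase, read 8.25 and 8.44 without and 10.48 on both arrays with COH29 in HCC1937, and 7.95 and 8.02 against 11.32 and 11.40 in HCC1937+BRCA1. Its changes were 2.13 ± 0.09 (adjusted p = 5.09e-06) and 3.38 ± 0.09 (adjusted p = 2.86e-07). DDIT3, a stress-induced C/EBP family factor, changed by 2.47 and 3.40 (adjusted p 5.86e-06 and 6.97e-07), and SESN2, a leucine sensor, by 1.49 and 2.95 (2.74e-05 and 5.77e-07). TRIB3, a pseudokinase induced by ATF4, changed by 1.26 and 2.09 (adjusted p 4.09e-05 and 1.44e-06). EIF2AK4, which encodes GCN2, the kinase that senses uncharged tRNA, fell in both lines, by -0.56 and -0.80 (adjusted p 0.00121 and 0.000105).

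For this list the difference of effects had 7 of 20 genes called higher in HCC1937+BRCA1, beside 0.543% of all genes. None of the 35 synthetase genes was called higher, a count near that share. SESN2 differed by 1.46 ± 0.13 (adjusted p = 0.0031), ASNS by 1.25 ± 0.13 (0.00587) and NUPR1, a stress-induced chromatin protein, by 1.19 ± 0.14 (0.00785). TRIB3 differed by 0.83 ± 0.12 (adjusted p = 0.0206), a call lost without any 1 of 7 arrays (0.0605 to 0.1). The array whose loss did not end it was HCC1937 COH29 replicate 2. Without any 1 array the count was 3 or 4, and SESN2, ASNS and NUPR1 kept their calls.

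**Figure D5:**
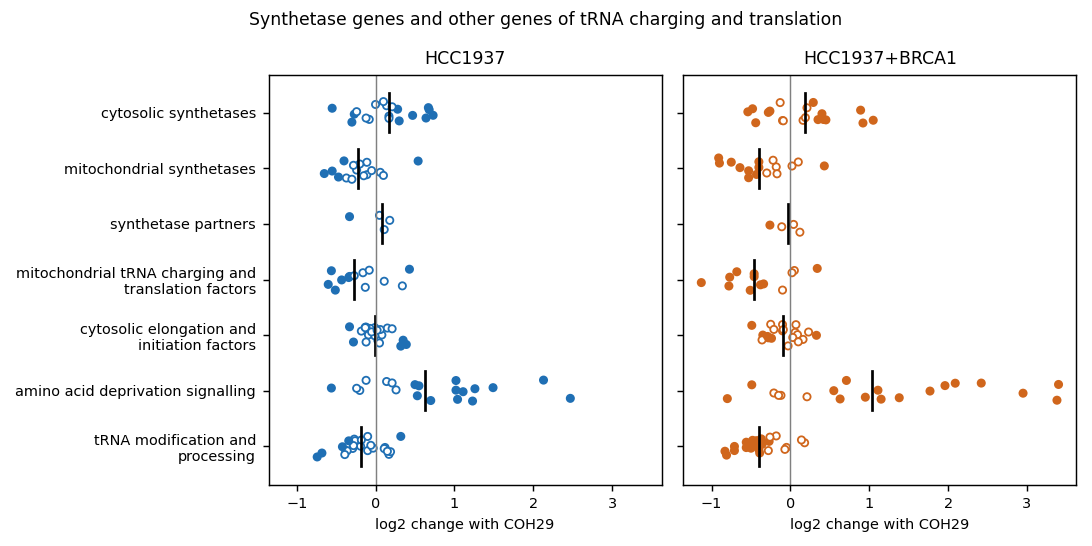
Log2 change with COH29 (x axis) of the genes of each set (rows), in HCC1937 (left) and HCC1937+BRCA1 (right), 1 point a gene, filled at adjusted p under 0.05, with a black line at the median of the set and random vertical spread. The median of the mitochondrial synthetases (-0.22 and -0.40) lies beside that of the mitochondrial factors (-0.27 and -0.46), and that of the cytosolic synthetases (0.17 and 0.19) lies below that of amino acid deprivation signalling (0.63 and 1.03).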

How the data were processed

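The deposited table holds log2 intensities for 33297 probe sets on 8 single-colour arrays, which the authors normalised with RMA in Partek, per the submitters' processing notes (no version given). Genes came from the platform annotation: 19460 probe sets name 1 gene, 1754 several and 12083 none. Only the first kind was used, and for the 769 genes with several probe sets the one with the highest mean stood for the gene, leaving 18417. Symbols were matched to RefSeq by gene ID for 19429 probe sets.

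A group-means model over all 8 arrays was fitted by limma (version 3.58.1, under R 4.3.3) with moderated variances, 4 residual and 4.96 prior degrees of freedom and Benjamini-Hochberg adjustment over all genes. The script was tested on simulated data. The median standard error of a COH29 change was 0.103. The 2 arrays per group limit the precision.

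The members, gene lists and tests were chosen with earlier results of these data known. All 35 members may be named. Full statistics were given for the called members with the largest changes (up to 8 cytosolic and 5 mitochondrial per COH29 comparison, 6 per line comparison), and of each other list for the 4 smallest p-values. The line comparisons and the COH29 comparisons share arrays. Alternatives covered a filter on low values, array scaling, variance moderation, a replicate block, the choice of probe set, the arrays in the fit and leaving out each array. The labels' replicate numbers were not shown to pair the arrays. Protein sequences were not used here.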

Additional observations from a re-analysis of the deposited data

How the results depend on the processing

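Over 16 alternatives, 2558 of the single-gene results of the 35 genes kept their side of the threshold, 163 calls were lost and 44 were gained. No result called in either fit reversed direction. Changes of sign among uncalled results were not counted. The count of cytosolic genes lower in HCC1937 went from 3 to 1 with arrays shifted to one median and with a replicate block, and was 1 to 3 without 1 array. Mitochondrial genes lower there went from 4 to 7 with genes under the 30th percentile left out and with a replicate block crossed between the lines, and 2 to 4 without 1 array. In HCC1937+BRCA1 the cytosolic count of 5 lower became 3 with shifted arrays, with cyclic loess and with only the compared arrays, and was 3 to 5 without 1 array. There the cytosolic median became 0.28 under cyclic loess and the mitochondrial one -0.33 with shifted arrays. For the difference of effects, the cytosolic count went from 0 to 1 with a trended, robust prior, and the median from 0.00 to 0.08 under cyclic loess. Between the lines without COH29, cytosolic genes lower went from 7 to 11 with that prior, with 2 to 6 without 1 array, and cytosolic genes higher were 2 to 4. With COH29, cytosolic genes higher went from 3 to 1 with only the compared arrays and were 1 to 3 without 1 array. Cytosolic genes lower were 4 to 7, mitochondrial genes higher 1 to 2 and mitochondrial genes lower 3 to 7 without 1 array. Apart from the filter, the fit to fewer arrays and the left-out arrays, the cause was not tested.

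The crossed block was added after seeing the data, because deviations of same-numbered controls of the 2 lines correlated at -0.105. Recounting the other gene lists under each alternative was also added then. Between the control and COH29 arrays of one line, that correlation was 0.26 in HCC1937+BRCA1 and 0.037 in HCC1937. With shifted arrays, 54.4% of the calls in HCC1937+BRCA1 were higher, against 40.3%. Under that scaling the calls of FARSA and RARS1 in HCC1937 (adjusted p 0.0532 and 0.073) and of FARSB, KARS1 and FARS2 in HCC1937+BRCA1 (0.079, 0.053 and 0.0582) were lost. The plan to compare protein sequences of paired enzymes was not run. With 2 arrays a group, a change of about 0.103, the median standard error, cannot be told from 0, and larger changes were also missed. In HCC1937, TARS1 at 0.21 and KARS1 at -0.24 were not called (limma adjusted p 0.0993 and 0.0599). With the trended, robust prior both were called (0.018 and 0.00566), and KARS1 was also called with the low-level filter (0.0294).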
